A study of Mus musculus with 24 samples.

Results

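Acute phase proteins are plasma proteins whose output from the liver shifts during inflammation and tissue injury, and 10 of their genes were followed here in bulk liver RNA from 24 mice: Saa1, Saa2, Saa3, Saa4, Orm1, Orm2, Orm3, Lcn2, Hp and Hpx. They were chosen by symbol, each symbol named 1 row of the 53467 genes in the count table, and 10 of 10 were among the 19381 genes that reached 0.5 CPM (read counts brought to a common library size, here scaled by TMM) in at least 2 livers. All mice were male C57BL/6JAusb, 14 to 15 weeks old at plasmid injection, and each library was 1 liver. Every mouse received 0.8 µg of the Sleeping Beauty transposase plasmid (SB, driven by a CMV promoter) by hydrodynamic tail vein injection (HTVI), so no group stands for an uninjected liver. SB was given alone, with 10 µg of myr-AKT and 10 µg of c-Met plasmid (SB/AKT/c-Met, c-Met driven by an EF1a promoter), or with 10 µg of myr-AKT and 10 µg of NRasV12 plasmid (SB/AKT/NRas, NRasV12 driven by a CAGGS promoter). These promoters are not restricted to hepatocytes, and HTVI reaches only a share of the cells of a liver. Each combination was followed by intraperitoneal thioacetamide (TAA, a hepatotoxin) at 100 and later 200 mg/kg or by saline, starting 8 to 10 days after HTVI, with 10 to 11 injections over 5 to 6 weeks. There were 4 mice in SB + saline, 4 in SB + TAA, 3 in the SB/AKT/c-Met + saline group, 4 given SB/AKT/c-Met + TAA, 4 given SB/AKT/NRas + saline and 5 given SB/AKT/NRas + TAA.

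In the acute phase response, interleukin-6 acts through STAT3 and interleukin-1 and tumor necrosis factor act through NF-kB and C/EBP factors on hepatocytes, which then release positive acute phase proteins in larger amounts and negative ones, such as albumin, in smaller amounts. Saa1 and Saa2 encode the serum amyloid A proteins of acute phase plasma, which travel with high-density lipoprotein, Saa3 encodes a form made largely outside hepatocytes, and Saa4 encodes the constitutive form. Orm1, Orm2 and Orm3 encode orosomucoids (alpha-1-acid glycoproteins), carriers of small lipophilic molecules. Lcn2 encodes lipocalin 2, which binds bacterial siderophores and is made by neutrophils and injured epithelia as well as hepatocytes. Hp encodes haptoglobin, which captures free hemoglobin, and Hpx encodes hemopexin, which captures free heme.

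The libraries held 2152510 to 3399247 counts (median 2832909) and 15478 to 19026 detected genes, and the 10 genes together took 0.643% to 3.54% of the counts of a liver. A gene rose or fell where the edgeR quasi-likelihood adjusted p was under 0.05 (Benjamini-Hochberg over 19381 genes, 1 model of the 6 group means), and fold changes are log2 values ± standard error. TMM factors of the control livers (SB + saline) were 0.772 to 0.818, those of SB + TAA 0.943 to 1.15. Scaling by library size alone raised the median log2 fold change of all genes by 0.26 to 0.43 in the 5 comparisons with SB + saline, and left the direction of each change reported here as it was. Of 11 hepatocyte markers, 10 were in the table, and they summed to 62840 to 130000 CPM in every liver. In livers given NRas, human NRAS stood at 12.3 to 218 CPM. Livers that stood apart were SB + TAA replicate 4, where the skeletal muscle markers summed to 4697 CPM, and SB/AKT/NRas + saline replicate 1, which had the lowest human NRAS of that group at 12.3 CPM. In SB + saline replicate 2, which had the lowest Saa1 and Saa2 of the controls, the adipocyte markers summed to 113.1 CPM, against 18 to 19.7 CPM in the other controls. Calls that changed without these livers are given beside the values.

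Levels differed among the 6 groups for 8 of the 10 genes by the edgeR F test, against 9.01% of all genes tested. The adjusted p from edgeR was 2.07e-05 for Orm2, 2.74e-05 for Saa1, 2.98e-05 for Lcn2, 8.27e-05 for both Saa2 and Saa4, 0.000186 for Orm3, 0.0398 for Orm1 and 0.0418 for Hp. Saa3 (edgeR adjusted p = 0.139) and Hpx (0.645) missed the threshold. Orm1 and Hp sat close to it, and omitting SB + TAA replicate 4 left 6 of the 10 genes past the test, as did omitting SB + saline replicate 3 or 4, SB/AKT/c-Met + TAA replicate 1, SB/AKT/NRas + saline replicate 3 or 4, or SB/AKT/NRas + TAA replicate 1, 2 or 5. The genes moved along different lines, with the group means of Saa1, Saa2 and Saa4 highest in SB + saline and those of Orm2, Orm3 and Lcn2 highest in livers given oncogene plasmids.

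**Figure D1:**
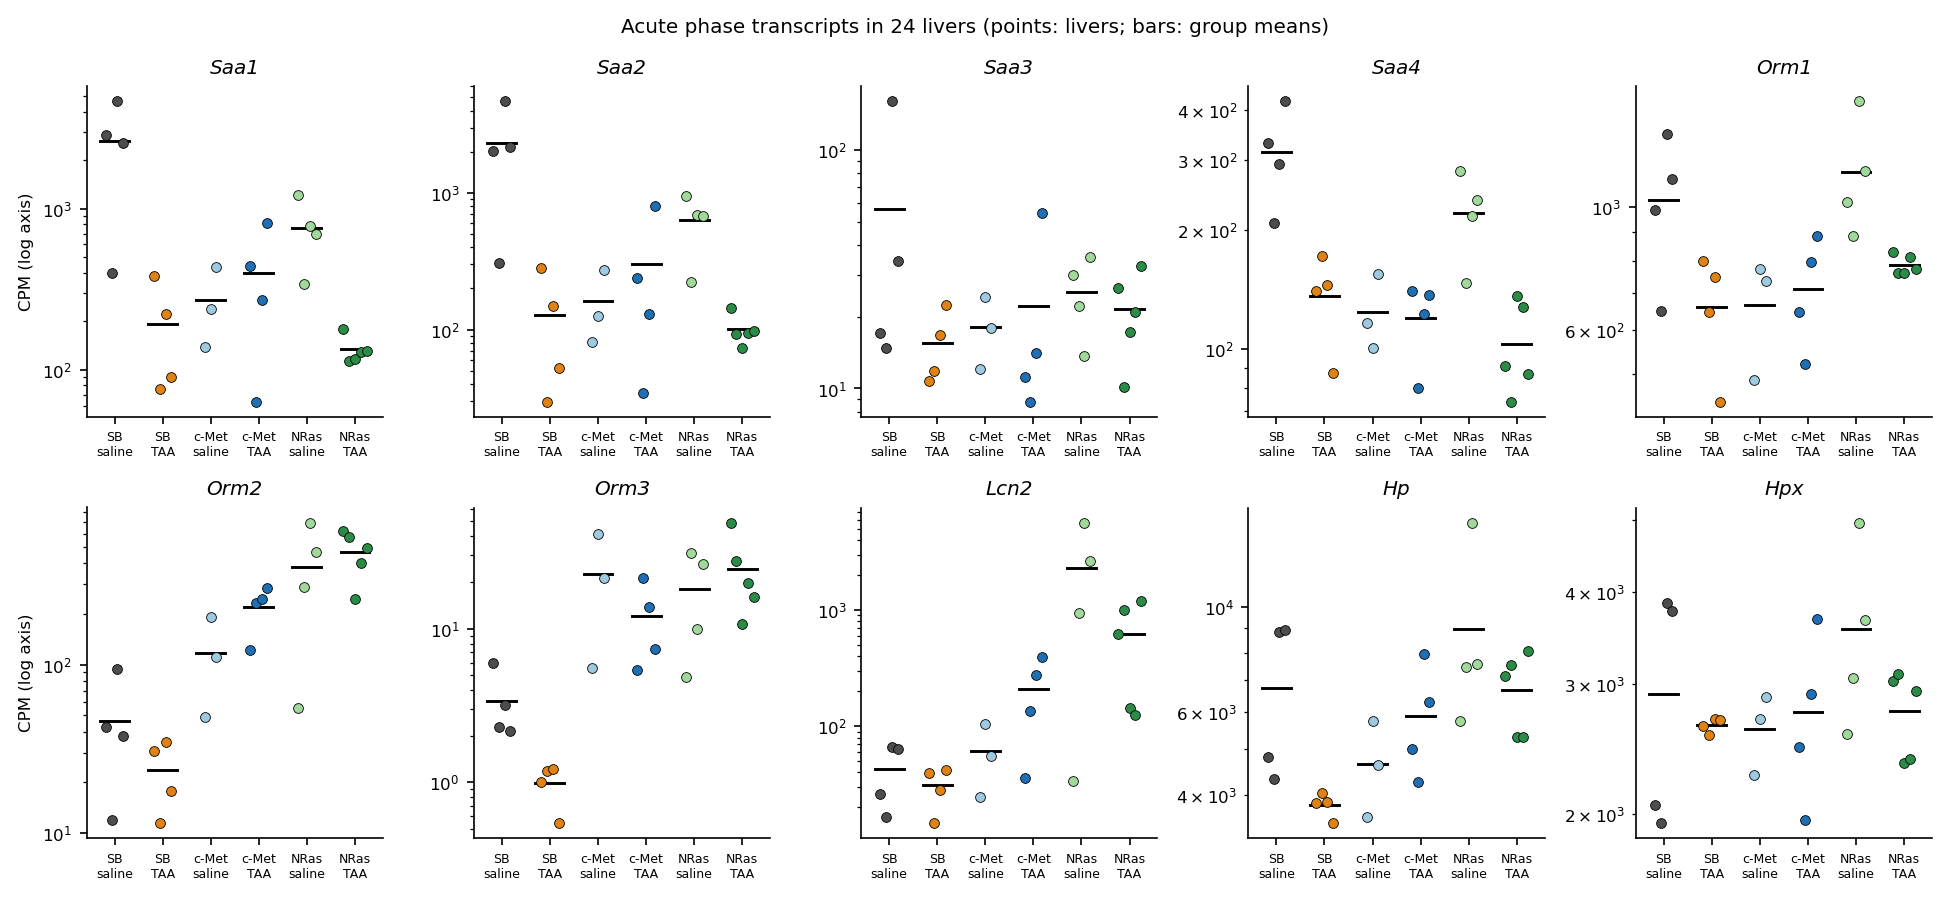
CPM of each of the 10 genes (log axis) in the 24 livers by group, with 1 point per liver and a bar for the group mean. Saa1 and Saa2 were lower in every SB + TAA liver than in any SB + saline liver, and Lcn2 spread from 33.9 to 5689 CPM within SB/AKT/NRas + saline.

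The serum amyloid A genes lie together on chromosome 7 of GRCm38, with Saa3 at 46711998 to 46715700, Saa4 at 46727998 to 46732603 and Saa1 at 46740497 to 46742980 on the minus strand, and Saa2 at 46751790 to 46754313 on the plus strand. The orosomucoid genes lie together on the plus strand of chromosome 4, with Orm1 at 63344560 to 63348163, Orm3 at 63356162 to 63359511 and Orm2 at 63362449 to 63365878. Lcn2 is on the minus strand of chromosome 2 (32384633 to 32388252), Hp on the minus strand of chromosome 8 (109575128 to 109579172) and Hpx on the minus strand of chromosome 7 (105591613 to 105600137). Saa1 and Saa2 are near-identical copies that point away from each other. Their coding sequences matched at 348 of 366 aligned bases (95.1%), while Saa3 matched Saa1 at 75.7% and Saa4 matched Saa1 at 65%. Among the orosomucoids, coding identity was 89.9% for Orm1 and Orm2, 86% for Orm1 and Orm3 and 87.9% for Orm2 and Orm3. Because the libraries were read from the 3′ end, the last 500 bases of the transcripts bear most on the counts. Of the runs of 50 bases in that stretch, 32.6% were shared by Orm1 and Orm2, 5.76% by Orm2 and Orm3, 5.32% by Saa1 and Saa2, 3.55% by Orm1 and Orm3 and 2% by Saa1 and Saa3. Reads that lie wholly within such runs map to more than 1 place and were left out of the counts. A longer read that reaches past a run may still be placed, and read length was not taken into account. A read with a sequencing error may be given to the wrong copy, so the division of counts within Saa1 and Saa2 and within the orosomucoids is uncertain.

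The sequences upstream of 5 of the genes are shown because the copies move together or apart in the results that follow, and the reader can see how alike their starts are. Each line is the 250 bases before the RefSeq start (GRCm38.p6), written 5′ to 3′ on the strand of the gene, with capitals for matches to TTNNGCAA, the C/EBP letters searched on both strands. The windows are chr7:46742981-46743230 on the minus strand for Saa1, chr7:46751583-46751832 on the plus strand for Saa2, chr4:63362199-63362448 on the plus strand for Orm2, chr4:63355908-63356157 on the plus strand for Orm3 and chr2:32387740-32387989 on the minus strand for Lcn2.
Saa1: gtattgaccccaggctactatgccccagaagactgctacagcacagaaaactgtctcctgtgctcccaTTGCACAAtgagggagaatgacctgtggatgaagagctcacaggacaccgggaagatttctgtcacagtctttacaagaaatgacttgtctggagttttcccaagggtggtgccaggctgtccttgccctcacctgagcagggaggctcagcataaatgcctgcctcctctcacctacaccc
Saa2: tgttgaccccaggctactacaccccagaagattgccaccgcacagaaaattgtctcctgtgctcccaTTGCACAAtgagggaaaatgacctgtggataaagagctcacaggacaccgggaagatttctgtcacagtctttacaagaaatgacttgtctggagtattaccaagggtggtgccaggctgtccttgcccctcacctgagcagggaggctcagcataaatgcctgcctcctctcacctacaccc
Orm2: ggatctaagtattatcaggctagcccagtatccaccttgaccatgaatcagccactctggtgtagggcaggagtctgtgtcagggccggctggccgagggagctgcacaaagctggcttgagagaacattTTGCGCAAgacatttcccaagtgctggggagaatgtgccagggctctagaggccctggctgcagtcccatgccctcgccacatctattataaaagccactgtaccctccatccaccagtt
Orm3: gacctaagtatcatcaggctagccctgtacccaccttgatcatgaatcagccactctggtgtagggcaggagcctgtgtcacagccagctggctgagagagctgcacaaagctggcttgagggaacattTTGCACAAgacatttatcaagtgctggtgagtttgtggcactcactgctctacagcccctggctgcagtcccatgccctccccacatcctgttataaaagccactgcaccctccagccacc
Lcn2: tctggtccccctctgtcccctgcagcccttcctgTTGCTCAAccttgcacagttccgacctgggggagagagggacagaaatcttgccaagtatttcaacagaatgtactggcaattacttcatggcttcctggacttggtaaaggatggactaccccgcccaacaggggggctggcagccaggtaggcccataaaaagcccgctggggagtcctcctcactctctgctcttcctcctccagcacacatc

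A window was found for 8 of the 10 genes. The Saa1 and Saa2 windows matched at 94.8% of aligned bases and the Orm2 and Orm3 windows at 85.5%, while Saa1 and Saa3 matched at 48.9%. All 8 windows held the C/EBP letters, against 9.56% of 32851 windows of the same length (3142 windows). In Saa1 the match lay 182 to 175 bases before the start, in Saa2 183 to 176, in Orm2 120 to 113, in Orm3 121 to 114 and in Lcn2 216 to 209. The NF-kB letters GGNNTTTCC were in 1 of 8 windows, that of Saa3 (187 to 179 bases before the start), against 4.93% of all windows. The STAT letters TTCNNNGAA were in 0 of 8 against 7.02%, which says only that these letters are not in these windows. A match to letters is a description and not a measured site.

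Against SB + saline, Saa1 and Saa2 fell with TAA alone, with AKT/c-Met and saline, and with either plasmid combination followed by TAA. In SB + saline, Saa1 stood at 2862, 398, 4655 and 2551 CPM in replicates 1 to 4. In SB + TAA it was at 385, 75.8, 223 and 90.3 CPM. The highest SB + TAA liver was just below replicate 2 of SB + saline, so the groups did not overlap, although SB + saline itself was widely spread. The log2 fold change was −3.76 ± 0.64 (edgeR adjusted p = 0.000758), a 13.5-fold lower mean. In whole liver, fewer cells of a type and less RNA per cell cannot be told apart. Saa2, read from its own unique stretches, was at 2011, 308, 4693 and 2171 CPM in SB + saline and at 283, 29.6, 148 and 52.5 CPM in SB + TAA, again with every TAA liver below every control liver. Saa2 fell by 4.16 ± 0.78 on the log2 scale (edgeR adjusted p = 0.00189). Leaving out SB + saline replicate 2, the control liver with the lowest Saa1, or any other single liver kept the Saa1 decrease past the threshold, with log2 fold changes from −4.34 to −3.35.

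Saa1 in SB/AKT/c-Met + saline was at 139, 237 and 437 CPM, with 1 liver above the lowest control liver, and the log2 fold change was −3.27 ± 0.70 (edgeR adjusted p = 0.0193). Saa2 was at 81.5, 125 and 275 CPM there, all below the controls, and fell by 3.84 ± 0.86 (edgeR adjusted p = 0.0266). Both decreases were close to the threshold, and limma-voom gave an adjusted p of 0.0542 for each of them. Saa1 was lost without SB + saline replicate 3 (edgeR adjusted p = 0.0759) or 4 (0.051), or SB/AKT/c-Met + saline replicate 1 (0.0821) or 2 (0.179). Saa2 was lost without any of SB + saline replicates 1, 3 and 4 or SB/AKT/c-Met + saline replicates 1, 2 and 3, with edgeR adjusted p of 0.0515 to 0.23.

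With AKT/NRas and saline the same genes were lower than in SB + saline without passing the test in the model of all 6 groups. Saa1 was at 1216, 342, 776 and 697 CPM, so all but 1 liver lay between the lowest control liver and the other controls. The log2 fold change was −1.79 ± 0.59 (edgeR adjusted p = 0.0579), and it was −1.86 ± 0.70 for Saa2 (0.102). With only the groups compared in the fit both passed, Saa1 at −1.775 (edgeR adjusted p = 0.041) and Saa2 at −1.841 (0.0497). Saa1 also passed with a block for replicate number (−1.64, edgeR adjusted p = 0.0392). The omission of SB/AKT/NRas + saline replicate 1, of SB + saline replicate 2, of SB + TAA replicate 1, 2 or 4, or of SB/AKT/c-Met + TAA replicate 2 or 4 put Saa1 past the threshold (edgeR adjusted p = 0.0226 to 0.0487). Without both SB/AKT/NRas + saline replicate 1 and SB + TAA replicate 4, Saa1 was −2.13 (edgeR adjusted p = 0.0143) and Saa2 −2.13 (0.0443).

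In SB/AKT/NRas + TAA the 5 livers held Saa1 at 179, 113, 117, 130 and 131 CPM, the narrowest spread of the 6 groups (SD 26.3 CPM) and below every SB + saline liver. The mean was 19.5-fold lower than in SB + saline (log2 −4.29 ± 0.60, edgeR adjusted p = 4.07e-05), and that of Saa2 22.8-fold lower (−4.51 ± 0.72, 0.000173). Against SB/AKT/NRas + saline every liver was also lower, yet the test was missed, with −2.50 ± 0.56 for Saa1 (edgeR adjusted p = 0.0609) and −2.66 ± 0.67 for Saa2 (0.115). DESeq2 put both past it (adjusted p = 0.0165 and 0.0488), and so did 7 of the 24 omissions of 1 liver for Saa1: SB + saline replicate 2, SB + TAA replicate 1, 2 or 4, SB/AKT/c-Met + TAA replicate 2 or 4 and SB/AKT/NRas + saline replicate 2 (edgeR adjusted p = 0.0217 to 0.0454). Without both SB/AKT/NRas + saline replicate 1 and SB + TAA replicate 4, Saa1 was −2.19 (edgeR adjusted p = 0.0485). With only the groups compared in the fit, Saa1 was −2.49 (edgeR adjusted p = 0.00127) and Saa2 −2.65 (0.00171). In SB/AKT/c-Met + TAA the livers diverged, with Saa1 at 439, 63.3, 273 and 817 CPM and Saa2 at 239, 34.1, 129 and 805 CPM. Replicates 1 and 4 lay within the range of the control livers for Saa1. Against SB/AKT/c-Met + saline the log2 differences were 0.55 ± 0.63 for Saa1 (edgeR adjusted p = 0.876) and 0.91 ± 0.76 for Saa2 (0.8), neither past the test, with ranges that overlapped. Both genes fell against SB + saline, Saa1 by 2.72 ± 0.61 (edgeR adjusted p = 0.00903) and Saa2 by 2.93 ± 0.73 (0.0188). The Saa2 decrease was lost without SB + saline replicate 3 (−2.34, edgeR adjusted p = 0.0838) or SB/AKT/c-Met + TAA replicate 1, 2 or 3 (0.0563 to 0.0734).

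Saa1 and Saa2 tracked each other liver by liver. Over 24 livers their log2 CPM had a Pearson r of 0.99 and a Spearman rho of 0.976, and r was 0.982 after the group means were removed. The points share each library's depth and scaling, and the part of misplaced reads in this likeness was not tested. Saa2 made up 45.3% ± 3.81 (SD, n = 4) of the reads of the pair in SB + saline and 36.8% ± 6.24 (n = 4) in SB + TAA. Single livers went from 28.1% in SB + TAA replicate 2 (95% exact binomial interval 22.8% to 33.9%) to 50.2% in SB + saline replicate 3 (49.6% to 50.9%). The sum of Saa1, Saa2 and Saa3, which does not depend on how counted reads were divided among them, stood at 4968 ± 3592 CPM (SD, n = 4) in SB + saline, 337 ± 256 in SB + TAA (n = 4) and 256 ± 56.9 in SB/AKT/NRas + TAA (n = 5). The hepatocyte markers summed to 111000 to 130000 CPM in SB + saline, to 93250 to 125400 CPM with TAA alone, to 77050 to 88660 CPM in SB/AKT/c-Met + saline, to 66990 to 95110 CPM in the c-Met livers given TAA and to 64650 to 90010 CPM in SB/AKT/NRas + TAA. The part of the hepatocyte share in these decreases was not tested.

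Saa4, the constitutive form, fell less than Saa1 and Saa2 in log2 terms and more evenly. It was at 331, 209, 293 and 422 CPM in SB + saline and at 141, 172, 145 and 87.1 CPM in SB + TAA, with no overlap. The change in SB + TAA was −1.21 ± 0.25 (edgeR adjusted p = 0.00378). In SB/AKT/c-Met + saline it was at 117, 101 and 155 CPM, all below the controls (−1.34 ± 0.27, edgeR adjusted p = 0.0122), a call lost without SB + saline replicate 4 (0.0664) or SB/AKT/c-Met + saline replicate 2 (0.164). With TAA added to plasmids it fell again with no overlap, at 79.9 to 140 CPM with c-Met (−1.39 ± 0.25, 0.00106) and at 73.8 to 136 CPM with NRas (−1.61 ± 0.23, 5.5e-05). SB/AKT/NRas + saline held 281, 147, 217 and 238 CPM, a range that overlapped SB + saline (−0.51 ± 0.24, edgeR adjusted p = 0.209). Against that group, Saa4 was the 1 gene of the 10 that passed in SB/AKT/NRas + TAA livers (−1.10 ± 0.23, edgeR adjusted p = 0.0314, every liver lower). This call was lost without SB/AKT/NRas + saline replicate 1 or 4 or SB/AKT/NRas + TAA replicate 1, 2 or 5 (edgeR adjusted p = 0.0627 to 0.129). It was also lost with a block for replicate number (0.0602) and with only the groups compared in the fit (0.0627). In the latter fit Saa1 and Saa2 passed instead (edgeR adjusted p = 0.00127 and 0.00171).

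Saa3 was low throughout, at 25 to 400 reads per liver. In SB + saline it was at 17.1, 14.8, 160 and 34.3 CPM, and in SB + TAA at 10.8, 11.8, 16.8 and 22.5 CPM. Replicate 3 of SB + saline stood far above the other controls, whose range overlapped that of SB + TAA. The decrease in SB + TAA was −1.87 ± 0.57 (edgeR adjusted p = 0.0486) and rested on that liver, since it was −0.52 (0.602) without it. Limma-voom gave −1.23 (adjusted p = 0.221), DESeq2 an adjusted p of 0.0513, and the call was kept in 7 of the 24 omissions of 1 liver, those of SB + saline replicate 1 or 2, SB/AKT/c-Met + TAA replicate 2 or 4, SB/AKT/NRas + saline replicate 1 or 3 and SB/AKT/NRas + TAA replicate 5. Without both SB/AKT/NRas + saline replicate 1 and SB + TAA replicate 4 it was −2.14 (edgeR adjusted p = 0.0506). In both plasmid groups with TAA the Saa3 means lay below that of SB + saline without passing, at −1.37 with c-Met (edgeR adjusted p = 0.183) and −1.41 ± 0.52 with NRas (0.0862). Without SB/AKT/c-Met + TAA replicate 4, the highest liver of its group at 54.4 CPM, the first was −2.33 (0.0256), and without SB + saline replicate 1 or 2 the second was −1.73 (0.0446) or −1.74 (0.0412). With only the groups compared in the fit both differences passed, at −1.36 with c-Met (edgeR adjusted p = 0.0417) and −1.42 with NRas (0.0453). In the model of all 6 groups, Saa3 passed in no comparison other than SB + TAA against SB + saline. The 9 markers of monocyte-derived macrophages, cells that make Saa3, summed to 80 to 151 CPM in SB + saline and 228 to 329.7 CPM in SB + TAA, and their part in these values was not tested.

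Orm2 and Orm3 rose where Orm1 did not. Orm1 was at 985, 650.3, 1349 and 1123 CPM in SB + saline and at 799, 647, 747 and 446 CPM in SB + TAA, and the 2 ranges overlapped. The log2 difference was −0.64 ± 0.22 (edgeR adjusted p = 0.0905), and it passed under DESeq2 (adjusted p = 0.0418) and without SB + saline replicate 2 (edgeR adjusted p = 0.0342). In SB/AKT/c-Met + saline (489, 774 and 734 CPM) the difference from SB + saline was −0.63 ± 0.24 (edgeR adjusted p = 0.353). It passed with only the groups compared in the fit (−0.63, edgeR adjusted p = 0.0438). SB/AKT/NRas + saline held 1020, 885, 1548 and 1157 CPM, above every SB/AKT/c-Met + saline liver (0.79 ± 0.24, edgeR adjusted p = 0.262). SB/AKT/NRas + TAA was even, at 761 to 829 CPM, below every liver of SB/AKT/NRas + saline (−0.55 ± 0.21, edgeR adjusted p = 0.444). None of these pairwise differences of Orm1 passed in the edgeR model of all 6 groups with the filter on low counts. That between the saline groups of NRas and c-Met passed without both SB/AKT/NRas + saline replicate 1 and SB + TAA replicate 4 (0.85, edgeR adjusted p = 0.0473).

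Orm2 was at 42.8, 11.9, 93.8 and 37.7 CPM in SB + saline and at 30.9, 11.5, 34.9 and 17.9 CPM in SB + TAA, ranges that overlapped (−0.98, edgeR adjusted p = 0.318). In SB/AKT/NRas + saline it was at 55.4, 291, 697 and 467 CPM, with replicate 1 inside the control range and the others above it. The rise was 3.01 ± 0.55 (edgeR adjusted p = 0.00134). All 5 livers of SB/AKT/NRas + TAA (619, 574, 245, 400 and 492 CPM) were above every SB + saline and every SB + TAA liver. Orm2 rose there by 3.31 ± 0.55 against SB + saline (edgeR adjusted p = 0.000261) and by 4.29 ± 0.58 against SB + TAA (5.86e-05). The SB/AKT/c-Met + saline livers held 48.6, 193 and 111 CPM, overlapping SB + saline (1.32 ± 0.56, edgeR adjusted p = 0.416). This difference passed with only the groups compared in the fit (1.30, edgeR adjusted p = 0.000805) and without the filter on low counts (1.30, 0.00244). With TAA the c-Met livers were at 121, 233, 247 and 283 CPM, above all SB livers with or without TAA. Orm2 rose in them by 2.23 ± 0.54 against SB + saline (edgeR adjusted p = 0.0151) and by 3.21 ± 0.56 against SB + TAA (0.00375). The first of these was lost without SB + saline replicate 1, 2 or 4 (edgeR adjusted p = 0.0525 to 0.0633), and the second kept its call without any 1 liver. Between the saline groups, NRas livers differed from c-Met livers by 1.68 (edgeR adjusted p = 0.325), and by 2.05 (0.0267) without SB/AKT/NRas + saline replicate 1.

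Orm3 had few reads, 2 to 147 per liver. The SB + TAA livers had 3, 3, 4 and 2 reads (1.01, 1.18, 1.22 and 0.541 CPM), all below the 2.14 to 5.99 CPM of SB + saline, and the difference was not past the test (−1.79 ± 0.92, edgeR adjusted p = 0.266). SB/AKT/c-Met + saline held 5.56, 41 and 21.4 CPM (2.72 ± 0.64, edgeR adjusted p = 0.0378) and SB/AKT/NRas + saline 4.84, 31, 9.94 and 26.4 CPM (2.38 ± 0.62, 0.0168). Both rises had 1 liver inside the control range. The c-Met rise was lost without any of the SB + saline livers or without SB/AKT/c-Met + saline replicate 2 or 3 (edgeR adjusted p = 0.0597 to 0.489) and under limma-voom (adjusted p = 0.289). The NRas rise was lost without SB + saline replicate 2 or 4 or SB/AKT/NRas + saline replicate 2 or 4 (edgeR adjusted p = 0.0506 to 0.0685) and under limma-voom (0.122). In SB/AKT/NRas + TAA every liver (10.7 to 49.1 CPM) was above all SB livers, with a rise of 2.81 ± 0.59 against SB + saline (edgeR adjusted p = 0.00283) and 4.61 ± 0.69 against SB + TAA (0.000201). SB/AKT/c-Met + TAA (5.38, 21.5, 13.8 and 7.37 CPM) was above every SB + TAA liver (3.59 ± 0.75, edgeR adjusted p = 0.017) and overlapped SB + saline (1.79 ± 0.64, 0.121). The first was lost without SB + TAA replicate 4 or SB/AKT/c-Met + TAA replicate 2 or 3 (edgeR adjusted p = 0.0595 to 0.119) and under limma-voom (0.289). The second passed with only the groups compared in the fit (1.81, edgeR adjusted p = 0.000674).

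Within the counted orosomucoid reads, the mean share of Orm2 was larger in the groups given oncogene plasmids, a description with no test. Its share of the reads of Orm1, Orm2 and Orm3 was 3.92% ± 1.97 (SD, n = 4) in SB + saline and 3.44% ± 1.18 (n = 4) in SB + TAA. It was 13.6% ± 5.14 (n = 3) in SB/AKT/c-Met + saline, 23.3% ± 5.87 (n = 4) in SB/AKT/c-Met + TAA, 22.1% ± 11.7 (n = 4) in SB/AKT/NRas + saline and 35.7% ± 7.51 (n = 5) in SB/AKT/NRas + TAA. SB/AKT/NRas + saline replicate 1, at 5.13%, was inside the SB + saline range of 1.80% to 6.49%. The sum of the 3 genes covered a smaller range, from 685 ± 163 CPM in SB + TAA to 1548 ± 531 in SB/AKT/NRas + saline, against 1077 ± 324 in SB + saline. Since Orm1 and Orm2 share 32.6% of the runs near their 3′ ends, these shares describe reads that could be placed, and the part of misplaced reads in them was not tested. The Orm1 mean in SB/AKT/NRas + TAA was 787 CPM, below the 1027 CPM of SB + saline, while Orm2 was higher. This Orm1 difference did not pass the test (−0.38, edgeR adjusted p = 0.276).

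**Figure D2:**
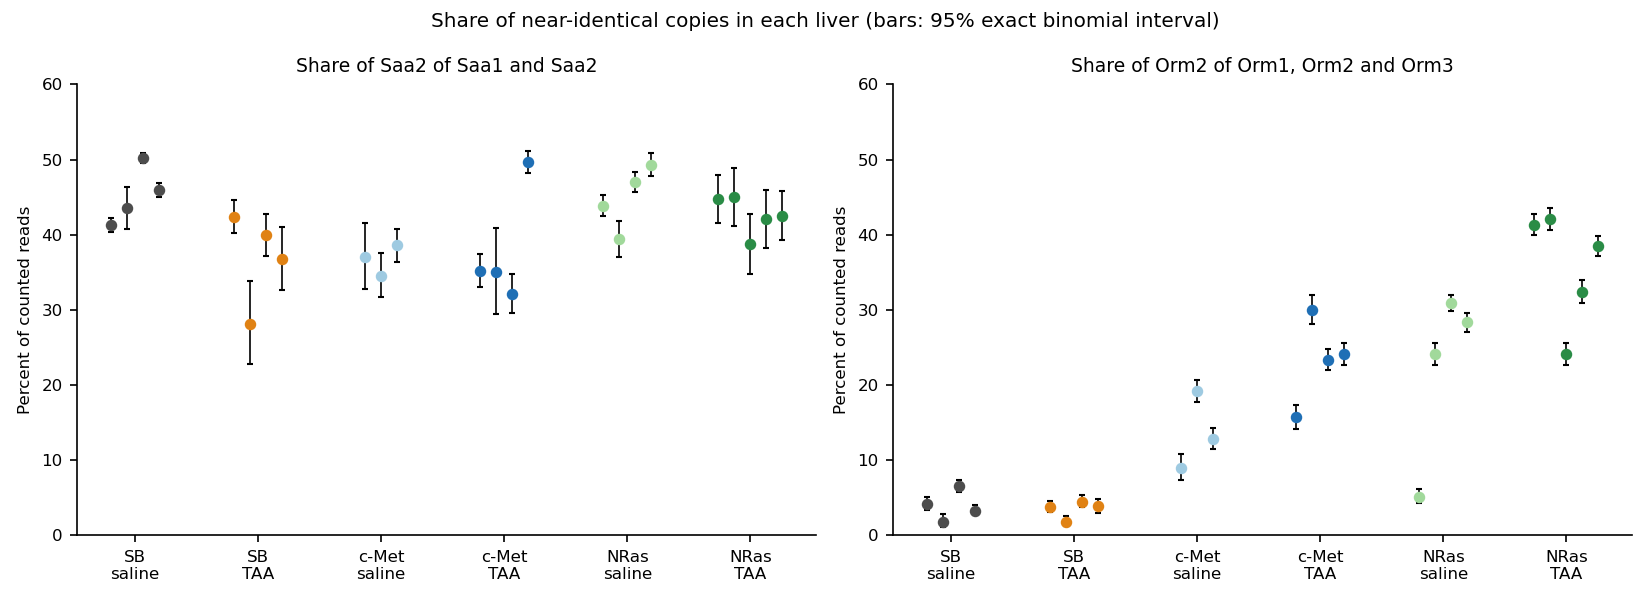
Percent of the counted reads of Saa1 and Saa2 that were given to Saa2, and of the 3 orosomucoid genes that were given to Orm2, in each of the 24 livers by group, with 95% exact binomial intervals that cover counting error only. The Saa2 share had group means of 36.7% to 45.3%, and the Orm2 share went from 3.92% in SB + saline to 35.7% in SB/AKT/NRas + TAA.

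Lcn2 had the largest rise of the 10 genes over the 10 pairwise comparisons. It was at 26.1, 16.5, 66.2 and 63.4 CPM in SB + saline and at 39.3, 14.6, 28.1 and 41.7 CPM in SB + TAA, ranges that overlapped (−0.48 ± 0.86, edgeR adjusted p = 0.807). In SB/AKT/NRas + saline it was at 33.9, 939.5, 5689 and 2642 CPM in replicates 1 to 4. Replicate 1 was inside the control range and the other 3 livers were far above the highest control. The rise against SB + saline was 5.74 ± 0.99 (edgeR adjusted p = 0.000838), a 53.6-fold higher mean, and stayed past the threshold without any 1 liver, at 4.79 to 6.14. In SB/AKT/NRas + TAA the livers held 627, 1005, 144, 126 and 1197 CPM, all above every SB liver with or without TAA. Lcn2 rose there by 3.84 ± 0.90 against SB + saline (edgeR adjusted p = 0.00622) and by 4.32 ± 0.92 against SB + TAA (0.00951), while limma-voom gave adjusted p of 0.0502 and 0.0938. With the same plasmids, TAA and saline livers differed by −1.91 ± 0.76 (edgeR adjusted p = 0.489).

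In livers given c-Met, Lcn2 did not pass the test against SB livers in the model of all 6 groups. SB/AKT/c-Met + saline was at 24.5, 105 and 55.5 CPM, with 1 liver above the control range, and SB/AKT/c-Met + TAA at 36.1, 135, 277 and 393 CPM, with 3 of 4 livers above it. The latter was 2.28 ± 0.86 above SB + saline (edgeR adjusted p = 0.149), 2.76 ± 0.88 above SB + TAA (0.244) and 1.76 ± 0.93 above SB/AKT/c-Met + saline (0.615), none past the test. Without SB/AKT/NRas + saline replicate 1, and also without both that liver and SB + TAA replicate 4, the first of these passed (2.26, edgeR adjusted p = 0.0458, and 2.25, 0.0343). With only the groups compared in the fit, each of these differences of SB/AKT/c-Met + TAA passed. They were 2.29 against SB + saline (edgeR adjusted p = 8.08e-06), 2.76 against SB + TAA (0.0199) and 1.76 against SB/AKT/c-Met + saline (0.00902). Between the saline groups, Lcn2 was the 1 gene of the 10 that differed between NRas and c-Met (5.23 ± 1.09, edgeR adjusted p = 0.0438, with 1 NRas liver inside the c-Met range). That call was kept in 7 of the 24 omissions of 1 liver, those of SB + TAA replicate 2 or 4, SB/AKT/NRas + saline replicate 1 or 2 and SB/AKT/NRas + TAA replicate 3, 4 or 5. It was lost most clearly without SB/AKT/c-Met + saline replicate 1 (4.87, edgeR adjusted p = 0.338) or 3 (5.16, 0.335) and SB/AKT/NRas + saline replicate 3 (4.28, 0.253), and under limma-voom (3.99, 0.331). That call was also lost with only the groups compared in the fit (5.22, edgeR adjusted p = 0.144).

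Other values moved with Lcn2 in the livers given NRas. In the saline livers, replicates 1, 2, 4 and 3 were in the same ascending order for human NRAS (12.3, 55.3, 66.1 and 218 CPM) and for Lcn2. Human NRAS in SB/AKT/NRas + TAA was 34, 47.7, 18.5, 17.9 and 75.7 CPM in replicates 1 to 5, and the lowest and the highest Lcn2 of that group were again in the livers with the lowest and the highest human NRAS. The 7 bile duct epithelium markers summed to 56.1 to 96.2 CPM in SB + saline, 150 to 8804 in SB/AKT/NRas + saline and 224 to 4758 in SB/AKT/NRas + TAA. Of the 6 that were tested, 3 rose in SB/AKT/NRas + saline: Spp1 (6.07, edgeR adjusted p = 0.000838), Epcam (2.78) and Sox9 (1.47). Spp1, osteopontin, made up most of the sum, at 98.5 to 8582 CPM in SB/AKT/NRas + saline, while the duct keratins Krt7 (0 to 7.95 CPM) and Krt19 (0 to 18.8 CPM) did not pass (edgeR adjusted p = 0.243 and 0.168). The 12 neutrophil markers summed to 3.42 to 13.3 CPM in SB + saline, 16.3 to 104 in SB/AKT/NRas + saline and 13.8 to 45.6 in SB/AKT/NRas + TAA. S100a8 (2.66, edgeR adjusted p = 0.00364) and S100a9 (2.66, 0.00808), which form calprotectin, rose in SB/AKT/NRas + saline, while the granule gene Ltf had at most 2 reads in a liver. The study reported hepatocellular, cholangiocellular and mixed lesions in mice given SB/AKT/NRas with and without TAA, and its RNA came from bulk liver. The part of these lesions, of neutrophils, of bile duct epithelium and of the amount of transgene in the Lcn2 rise was not tested.

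**Figure D3:**
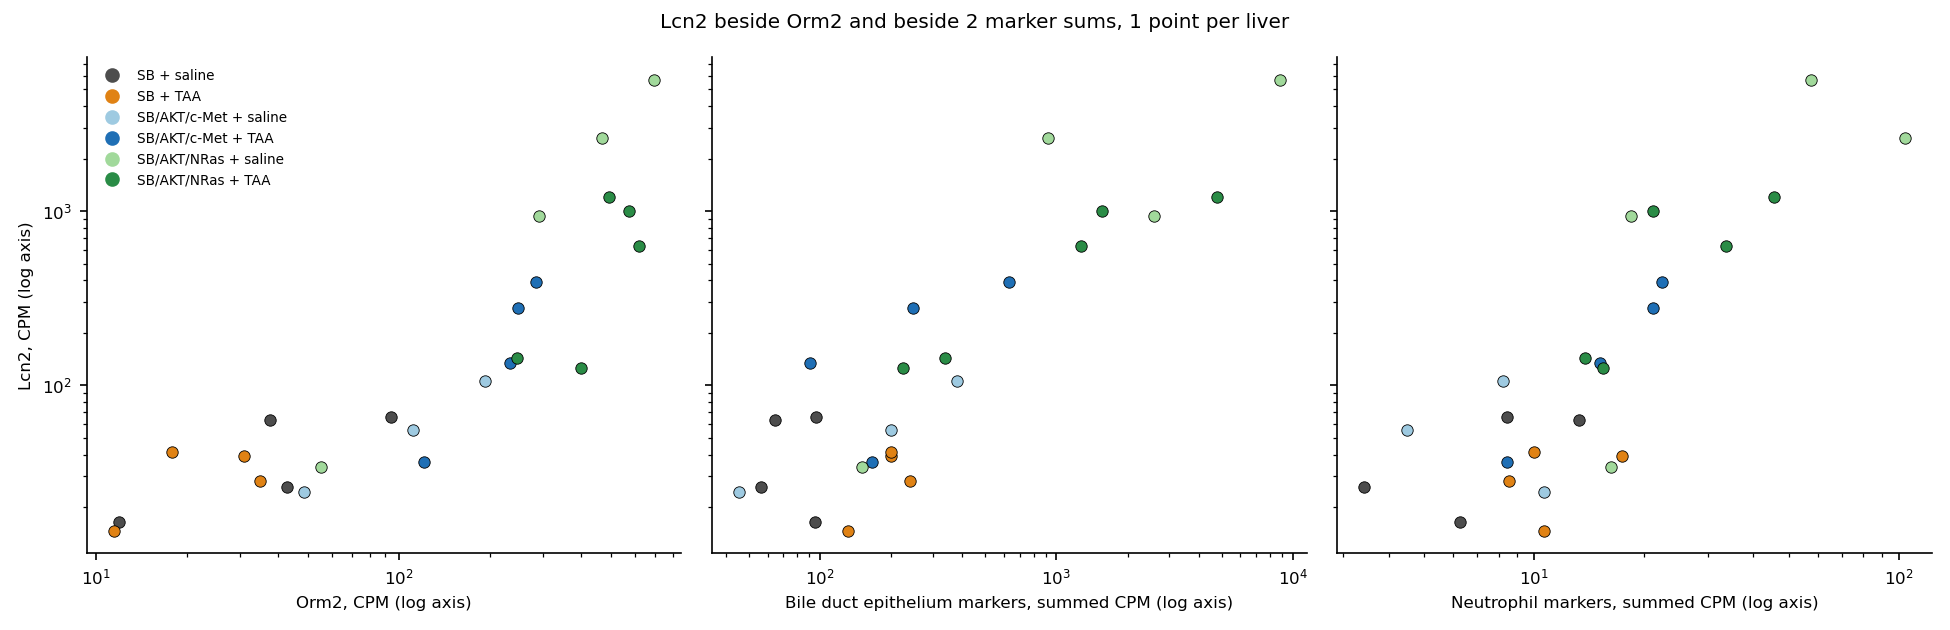
Lcn2 (CPM, log axis) in each of the 24 livers against Orm2 and against the summed CPM of bile duct epithelium and of neutrophil markers (log axes), colored by group. The liver with the highest Lcn2, 5689 CPM, also had the highest bile duct marker sum, 8804 CPM, while the liver next in Lcn2, at 2642 CPM, had a sum of 919 CPM.

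Hp and Hpx, the hemoglobin and heme carriers, passed the edgeR test in 0 of the 10 pairwise comparisons in the model of all 6 groups. Hp had an unadjusted p under 0.05 in 4 of them and Hpx in 0. Hp was at 4812, 4316, 8849 and 8928 CPM in SB + saline and at 3848, 4043, 3872 and 3484 CPM in SB + TAA. Every SB + TAA liver was below every control liver, and the difference missed the test (−0.82 ± 0.28, edgeR adjusted p = 0.0831). It passed under DESeq2 (adjusted p = 0.0352) and without SB/AKT/NRas + saline replicate 1 (edgeR adjusted p = 0.0442) or 3 (0.035). With only the groups compared in the fit it also passed (−0.84, edgeR adjusted p = 0.0394). SB/AKT/NRas + saline held 5739, 7465, 15080 and 7582 CPM, which overlapped both SB + saline (0.41, edgeR adjusted p = 0.404) and SB/AKT/c-Met + saline (0.95 ± 0.31, 0.287). The latter difference was 1.11 (edgeR adjusted p = 0.0388) without both SB/AKT/NRas + saline replicate 1 and SB + TAA replicate 4. The 5 livers of SB/AKT/NRas + TAA, at 5307 to 8065 CPM, were all above those of SB + TAA without passing (0.81 ± 0.27, edgeR adjusted p = 0.167). This difference passed with only the groups compared in the fit (0.82, edgeR adjusted p = 0.0242). Hpx had group means of 2611 to 3563 CPM and overlapped in each of the 10 pairwise comparisons. Its 95% interval in SB + TAA against SB + saline was −0.61 to 0.33 on the log2 scale, and in SB/AKT/NRas + saline against SB + saline −0.18 to 0.76, so changes inside these bounds could not be told from none.

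Counted over the 10 genes, the changes with TAA alone were decreases. In SB + TAA, 4 of the 10 fell (Saa1, Saa2, Saa3 and Saa4) and 0 rose. Of all genes, 5.99% were past the test in either direction (2.51% fell and 3.48% rose). The median log2 fold change of the 10 genes was −1.09 against 0.09 for all genes. SB/AKT/c-Met + saline had 3 decreases (Saa1, Saa2 and Saa4) and a rise of Orm3, against 0.64% of all genes (0.0413% fell and 0.599% rose). No gene of the 10 passed there without SB + saline replicate 4 or SB/AKT/c-Met + saline replicate 2, 1 passed without SB + saline replicate 3, and 2 passed without SB + saline replicate 1 or SB/AKT/c-Met + saline replicate 1 or 3. In SB/AKT/NRas + saline, 3 rose (Orm2, Orm3 and Lcn2) and 0 fell, against 8.41% of all genes (5.56% rose and 2.84% fell). In the model of all 6 groups, this group thus had no decrease past the test. Its differences in Saa1 and Saa2 from SB + saline, and fits in which they passed, are given above.

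The combinations of plasmids and TAA showed both directions at once. Against SB + saline, SB/AKT/c-Met + TAA had 3 decreases (Saa1, Saa2 and Saa4) and 1 increase (Orm2). Of all genes, 3.76% were past the test (1.07% fell and 2.68% rose). SB/AKT/NRas + TAA had 3 decreases (Saa1, Saa2 and Saa4) and 3 increases (Orm2, Orm3 and Lcn2), with 9.25% of all genes (3.55% fell and 5.7% rose). The 5 comparisons share the same 4 control livers, so their values are given side by side and their likeness is not counted as a result.

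**Figure D4:**
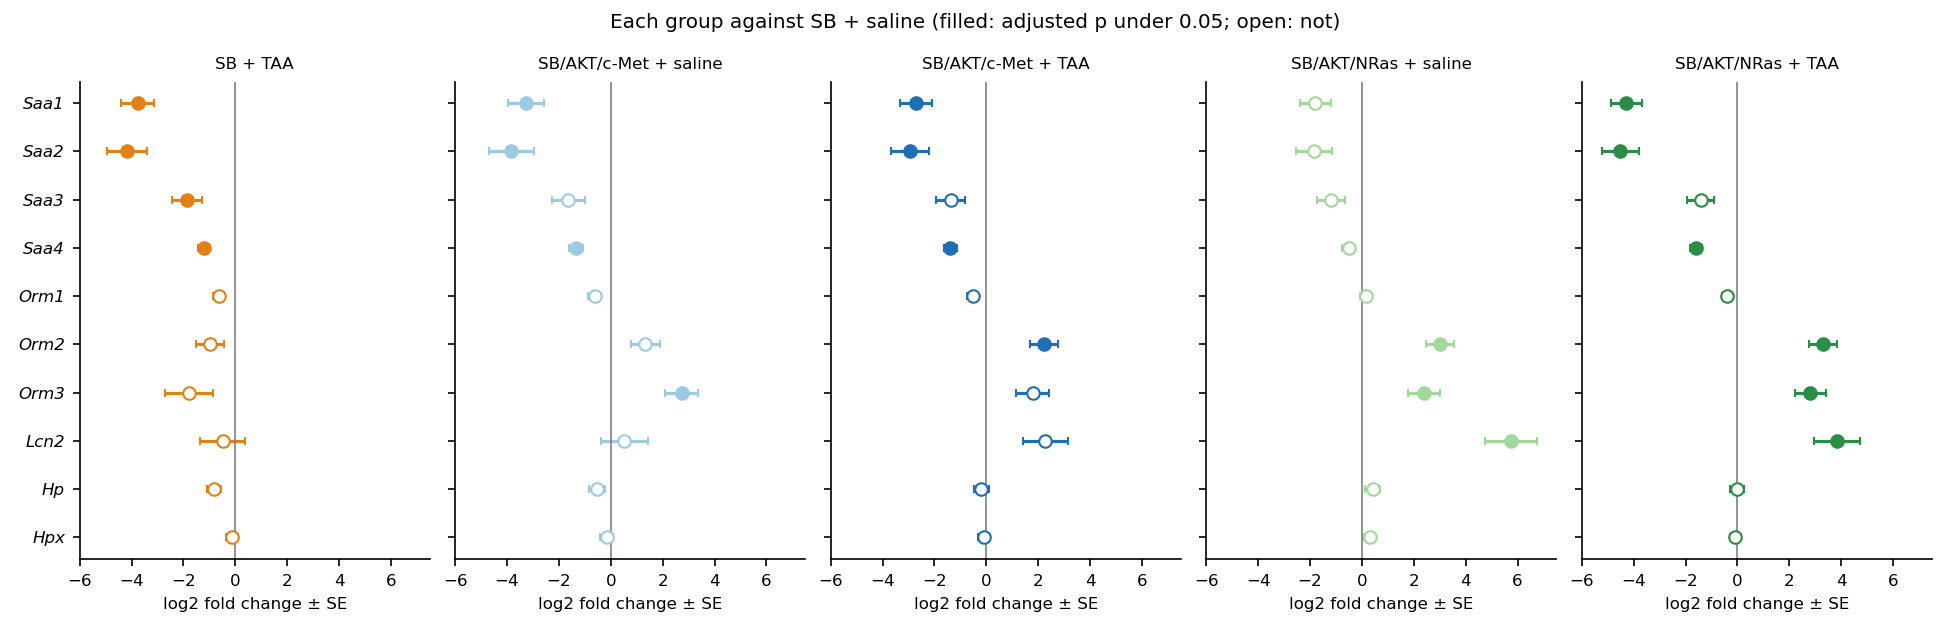
Log2 fold change ± standard error of the 10 genes in each of 5 groups against SB + saline, from 1 edgeR model over 24 livers, with filled points where the adjusted p was under 0.05. The filled points of Saa1, Saa2 and Saa4 lie left of 0 in every panel that has them, and those of Orm2, Orm3 and Lcn2 lie right of 0.

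Against TAA alone, Orm2 and Orm3 were higher with either oncogene combination. SB/AKT/c-Met + TAA had 2 increases (Orm2 and Orm3) and SB/AKT/NRas + TAA had 3 (Orm2, Orm3 and Lcn2), each with no overlap. Of all genes, 0.402% and 1.47% were past the test in either direction, and 0.268% and 1.01% rose. The count with c-Met was 1 without SB + TAA replicate 4 or SB/AKT/c-Met + TAA replicate 2 or 3. Against the same plasmids with saline, 1 gene passed with NRas (Saa4, 0.175% of all genes) and 0 with c-Met (0.237% of all genes). In the latter comparison edgeR also had 0 of the 10 at an unadjusted p under 0.05, and limma-voom and DESeq2 had 0 past the threshold. Lcn2 passed there with only the groups compared in the fit (1.76, edgeR adjusted p = 0.00902). With NRas the count was 0 to 2 when 1 liver was left out. With only the groups compared in the fit, Saa1 and Saa2 passed with NRas (edgeR adjusted p = 0.00127 and 0.00171) and Saa4 did not (0.0627). Between the saline groups, NRas against c-Met had 1 (Lcn2, 0.134% of all genes).

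The effect of TAA was then compared between livers with and without oncogenes. In SB livers the log2 fold change of Saa1 with TAA was −3.76. The effect of TAA with AKT/c-Met was higher than that by 4.31 ± 0.90 for Saa1 (edgeR adjusted p = 0.0981) and by 5.07 ± 1.09 for Saa2 (0.105), and neither passed. With edgeR 0 of the 10 genes passed (0.0103% of all genes), 7 had an unadjusted p under 0.05, limma-voom passed 0 and DESeq2 passed 2, Saa1 and Saa2 (adjusted p = 0.0107 for both). Without SB + saline replicate 2, Saa1 and Saa2 passed (4.70 and 5.46, edgeR adjusted p = 0.0351 and 0.0496), and Saa1 alone passed without SB/AKT/c-Met + TAA replicate 2 (4.70, 0.0373) or SB/AKT/NRas + saline replicate 1 (4.34, 0.0455). With AKT/NRas the difference for Saa1 was 1.26 ± 0.80 (edgeR adjusted p = 0.478). There 0 of the 10 genes passed (0.758% of all genes), with 2 at an unadjusted edgeR p under 0.05, and limma-voom and DESeq2 passed 0.

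Across the 24 livers the genes fell into pairs that moved together and pairs that did not. Orm2 and Lcn2 had a Pearson r of 0.872 and a Spearman rho of 0.909 in log2 CPM, with r of 0.851 after the group means were removed and 0.88 without SB/AKT/NRas + saline replicates 3 and 4, the livers whose Lcn2 CPM was farthest from the median. Orm2 and Orm3 had r of 0.85 and rho of 0.81, but 0.588 within groups. Hp and Hpx had r of 0.802 and rho of 0.756, with 0.897 within groups and 0.68 without SB/AKT/NRas + saline replicate 3 and SB + saline replicate 4, the livers whose Hp CPM was farthest from the median. Saa1 had r of −0.04 with Lcn2 and −0.11 with Orm2. These values describe livers of 6 groups that share library depth and scaling, and no p was computed.

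The genes outside the 10 whose log2 CPM was most like each of them over the 24 livers were other plasma proteins in several cases. Lcn2 was most like Cp, the copper carrier ceruloplasmin (r = 0.951, rho = 0.925), and Hkdc1, a hexokinase (0.951 and 0.892). Orm1 was most like Lrg1, an acute phase glycoprotein (r = 0.842, rho = 0.876), and Ssr4 (0.758 and 0.613). Orm2 was most like Fam83a (r = 0.896, rho = 0.902) and Serpinb6b (0.893 and 0.919), and Orm3 was most like Themis (0.9 and 0.919) and Aldh3a2 (0.891 and 0.891). Hp was most like the chemokine Cxcl13 (r = 0.859, rho = 0.821) and the iron carrier Trf (0.824 and 0.791), and Hpx was most like Cpne3 (0.777 and 0.713) and Trf (0.767 and 0.798). Saa4 was most like Serping1, the C1 inhibitor of plasma (r = 0.837, rho = 0.796), and Tm7sf2, a sterol reductase (0.825 and 0.773). Saa1 was most like Cyp2c69 (r = 0.772, rho = 0.586) and Serpina3c (0.765 and 0.63), and Saa2 was most like Cyp2c69 (0.788 and 0.588) and Apoa1, the main protein of high-density lipoprotein (0.738 and 0.697). Saa3 was most like Tespa1 (r = 0.721, rho = 0.597) and Hsd3b1 (0.706 and 0.451), both under 1 CPM on average. Cyp2c69, the closest match of Saa1 and Saa2, was also low at 0.93 CPM on average, as were Serpina3c (1.81) and Hkdc1 (2.00).

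Other genes known to rise in the acute phase, which include the intracellular metallothioneins and a few receptors beside plasma proteins, moved in both directions. Of 22 listed genes, 11 passed the edgeR F test over the 6 groups, against 9.01% of all genes. In SB + TAA 2 rose and 5 fell, in SB/AKT/c-Met + saline 0 rose and 1 fell, and in SB/AKT/NRas + saline 5 rose and 1 fell. In SB/AKT/c-Met + TAA 0 rose and 1 fell and in SB/AKT/NRas + TAA 3 rose and 3 fell, all against SB + saline. The shares of all genes past the test in these comparisons were 5.99%, 0.64%, 8.41%, 3.76% and 9.25%. The metallothioneins Mt1 and Mt2, which bind zinc and copper, rose in SB + TAA (2.62 and 3.75) and in the SB/AKT/NRas + saline livers (3.13, edgeR adjusted p = 0.00286, and 4.11 ± 0.76, 0.00134). Mt2 was at 8.18 ± 5.12 CPM (SD, n = 4) in SB + saline, 112 ± 63.7 in SB + TAA (n = 4), 144 ± 139 in SB/AKT/NRas + saline (n = 4) and 57 ± 38.5 in SB/AKT/NRas + TAA (n = 5). Here the effect of TAA differed between livers, since it was lower with AKT/NRas than with SB alone for Mt1 (−3.83, edgeR adjusted p = 0.0238) and Mt2 (−5.08 ± 0.95, 0.00952). Cd14, the lipopolysaccharide co-receptor, rose in SB/AKT/NRas + saline livers (4.51 ± 0.87, edgeR adjusted p = 0.00187), as did Cp (1.19 ± 0.27, 0.00734). Lbp, which hands lipopolysaccharide to Cd14, fell in SB + TAA (−0.79) and was higher in SB/AKT/NRas + TAA than in SB + TAA (1.03 ± 0.20, edgeR adjusted p = 0.00388), the 1 listed gene that passed there.

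Negative acute phase proteins, which fall in an acute phase response, fell wherever they passed the test against SB + saline. Of 10 listed genes, 4 passed the edgeR F test over the 6 groups, against 9.01% of all genes: Apoa1, Fetub, Pzp and Alb. Decreases numbered 2 in SB + TAA, 0 with SB/AKT/c-Met + saline, 4 with SB/AKT/NRas + saline, 2 with SB/AKT/c-Met + TAA and 4 with SB/AKT/NRas + TAA, and there were 0 increases. The shares of all genes past the test were 5.99%, 0.64%, 8.41%, 3.76% and 9.25%. The hepatocyte markers, a list that also holds Alb and Apoa1, summed to 62840 to 100600 CPM in SB/AKT/NRas + saline and to 64650 to 90010 CPM in SB/AKT/NRas + TAA, below the 111000 to 130000 CPM of SB + saline, and the part of the hepatocyte share in these decreases was not tested. In SB + TAA they were Fetub (−1.14, edgeR adjusted p = 0.0179), a fetuin, and Pzp (−0.68, 0.0247), a protease inhibitor. Apoa1 was at 16600 ± 2150 CPM (SD, n = 4) in SB + saline and 7632 ± 837 in SB/AKT/NRas + TAA (n = 5), a decrease of −1.12 ± 0.21 (edgeR adjusted p = 0.00106). Alb, albumin, fell in SB/AKT/NRas + saline livers (−0.78, edgeR adjusted p = 0.0323).

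Of 24 listed genes of the cytokine and signal chain, 22 were tested and 3 (13.6%) differed by the edgeR F test, against 9.01% of all genes: Il1rap, the accessory chain of the interleukin-1 receptor, Cebpa, a liver C/EBP factor, and Il6ra, the interleukin-6 receptor. All of these fell in SB/AKT/NRas + TAA against SB + saline, with −1.61 ± 0.34 for Il1rap (edgeR adjusted p = 0.00264), −1.05 for Cebpa (0.00976) and −1.14 for Il6ra (0.00716). Il1rap was at 122 ± 4.58 CPM (SD, n = 4) in SB + saline, 54.4 ± 21.7 in SB + TAA (n = 4) and 40.1 ± 20.2 in SB/AKT/NRas + TAA (n = 5). In the other groups against SB + saline the counts were 0 up and 2 down with TAA alone, 0 up and 0 down with SB/AKT/c-Met + saline, 1 up and 2 down with SB/AKT/NRas + saline and 0 up and 1 down with SB/AKT/c-Met + TAA. The shares of all genes past the test were 5.99%, 0.64%, 8.41% and 3.76% in these groups and 9.25% in SB/AKT/NRas + TAA. With so few genes listed, these counts are not read as a result about the list. Of 11 receptors and handling genes of these proteins and their cargo, 1 (9.09%) differed by the F test, against 9.01% of all genes: Fth1, the ferritin heavy chain, which rose in SB/AKT/NRas + TAA (1.02 ± 0.18 against SB + saline, edgeR adjusted p = 0.000712).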

How the data were processed

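RNA from 24 whole livers was sequenced from the 3′ end after poly(A) priming with molecular tags. Per the labels and the methods of the study, the authors used Sabre for demultiplexing and STAR for alignment to GRCm38 with human NRAS and MET. The methods state that reads were then deduplicated by tag with Picard and Samtools in RNAsik. Reads were counted with featureCounts 1.6.4 on the forward strand with a minimum mapping quality of 10. The counting command has no option that skips marked duplicates. Whether the stated deduplication removed duplicates or only marked them before counting is not settled by the sources used here. The counts may therefore include PCR duplicates. The deposited values are raw counts, 1 per gene and library, with no normalization. In the summary deposited by the authors, 43.95% to 54.79% of records lay below that mapping quality and were not counted, which bears on the Saa and Orm copies. No 2 libraries were identical, and 0 sample columns were left unused.

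The analysis used edgeR 4.0.16 in R 4.3.3. A gene was kept if 2 or more libraries reached 0.5 CPM (19381 of 53467), TMM gave the scaling, and a single quasi-likelihood fit of 6 group means took in the 24 libraries, with Benjamini-Hochberg adjustment over the genes kept and a threshold of 0.05. Each library is 1 mouse, so p-values measure the spread between mice, estimated for each gene over all 6 groups. The p of a pair therefore also depends on the spread in groups outside it. That spread differed between groups, with an SD of Lcn2 of 12.4 CPM in SB + TAA and 2489 CPM in SB/AKT/NRas + saline. The model was tested on simulated data. Log2 CPM for likeness used a prior count of 2. As alternatives, DESeq2 1.42.0 and limma-voom (limma 3.58.1) were run, and the edgeR fit was repeated with RLE size factors, with library size alone, without the filter, on only the groups compared, with a replicate block and without each single liver. A fit without both SB/AKT/NRas + saline replicate 1 and SB + TAA replicate 4 was chosen after the data had been seen.

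The 10 genes, the lists (positive and negative acute phase genes, cytokines and signal chain, receptors and handling, and markers of hepatocytes, neutrophils, bile duct epithelium, monocyte-derived macrophages, adipocytes and skeletal muscle) and the tests were chosen with earlier results of these data known. The genes named are the 10 members, of each pathway list up to 4 genes with the smallest p of the F test among those that pass it, and for each of the 10 the 2 genes with the highest Pearson r. Cp, S100a8, S100a9, Ltf, Spp1, Epcam, Sox9, Krt7, Krt19 and the single genes behind a count of 1 were named after their values were seen. Sequences upstream of genes are from RefSeq (GRCm38.p6), and coding sequences and coordinates from GENCODE M21. Python 3.11.15, Biopython 1.88 and matplotlib 3.10.9 were used.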

Additional observations from a re-analysis of the deposited data

Results flagged for a closer look

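In groups of 4 or 5 livers, a liver was singled out where its gap to the next, as a share of the whole range of the group, passed Dixon's 95% critical value. Of 50 sets of 1 gene in 1 group, 3 did so, and chance alone singles out about 1 in 20. Saa3 was at 160.4 CPM in SB + saline replicate 3, where the next liver had 34.25 CPM and the lowest 14.78 (gap 0.866 of the range). That liver also had the highest Saa1, Saa2, Orm1, Orm2 and Lcn2 of its group. Saa3 was at 54.41 CPM in SB/AKT/c-Met + TAA replicate 4, where the next liver had 14.11 CPM and the lowest 8.796 (gap 0.884 of the range), and Saa1 and Saa2 were also highest in that liver. Saa1 was at 178.9 CPM in SB/AKT/NRas + TAA replicate 1, where the next liver had 131.1 CPM and the lowest 113.3 (gap 0.729 of the range).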

How the results depend on the processing

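Of the 28 changes of single genes past the threshold, 896 alternative values were computed, of which 805 kept the direction and the call, 91 lost the call and 0 changed sign. The count of genes past the F test, 8, was 6 with the replicate block, 9 without the filter and 6 to 8 when 1 liver was left out. The counts of the 10 genes past the test moved by more than 1.5 times as follows. Without a filter on low counts they were 8 in SB + TAA against SB + saline (4 with it), 6 in SB/AKT/NRas + saline (3), 7 in SB/AKT/c-Met + TAA (4), 5 in SB/AKT/c-Met + TAA relative to SB + TAA (2), 1 in the c-Met livers with TAA against those with saline (0), 4 in the NRas livers with TAA against those with saline (1), 5 between the saline groups of NRas and c-Met (1), and 6 and 4 for the effect of TAA with c-Met or NRas minus that with SB alone (0 and 0). With only the groups compared in the fit they were 7 in SB/AKT/c-Met + saline (4), 5 in SB/AKT/NRas + saline, 7 in SB/AKT/c-Met + TAA, 1 in the c-Met livers with TAA against those with saline, 2 in the NRas livers with TAA against those with saline and 0 between the saline groups. With limma-voom they were 1 in SB/AKT/c-Met + saline, 1 in SB/AKT/c-Met + TAA relative to SB + TAA and 0 between the saline groups. With DESeq2 they were 3 in the NRas livers with TAA against those with saline and 2 for the effect of TAA with c-Met. With library size alone they were 5 in SB/AKT/NRas + saline and 0 between the saline groups. The causes of these moves were not tested. The shares of all genes past the test under these settings, and with livers left out, are not given here. The counts under them are therefore not set against a background and are not read as a result about the 10 genes.

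When 1 liver was left out, the counts ranged from 3 to 5 in SB + TAA, 0 to 4 in SB/AKT/c-Met + saline, 1 to 2 in SB/AKT/c-Met + TAA relative to SB + TAA, 0 to 2 in the NRas livers with TAA against those with saline, 0 to 2 between the saline groups and 0 to 2 for the effect of TAA with c-Met. Without both SB/AKT/NRas + saline replicate 1 and SB + TAA replicate 4, the counts were 5 in SB/AKT/NRas + saline, 2 in the NRas livers with TAA against those with saline and 4 between the saline groups, where Orm1 (0.85, edgeR adjusted p = 0.0473), Orm2 (2.05, 0.0153) and Hp (1.11, 0.0388) passed beside Lcn2. Livers of different groups with the same replicate number did not deviate together (mean r = −0.0072, against 0.0021 for different numbers), so the numbers were not taken to pair the mice. With the replicate block, the count was 0 in the NRas livers with TAA against those with saline and 0 between the saline groups. Depth limits Orm3, with 2 to 4 reads per SB + TAA liver, and Saa3.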
